A study of Mus musculus with 24 samples.

Results

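The 10 genes described here are genes of macrophage fusion and osteoclast formation, measured in 24 libraries. They are Dcstamp, Ocstamp, Acp5, Atp6v0d2, Ctsk, Oscar, Nfatc1, Tnfrsf11a, Calcr and Cdh1, chosen by name for their known roles, and they are 10 of the 54429 genes in the count table. Earlier results of these data were known when they were chosen. Counts among them, set beside shares over all genes, are therefore a description only. Of the 10, 7 passed the filter on low counts and were tested with the 12797 genes that did. Oscar, Calcr and Cdh1 did not pass it.

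Osteoclasts are the multinucleated cells that resorb bone, and they form when precursors of the macrophage lineage fuse. M-CSF keeps the precursors alive, and RANKL acts on its receptor RANK (gene Tnfrsf11a) to raise the transcription factor NFATc1, which turns on genes for fusion and for resorption. IL-4 is known to block osteoclast formation by RANKL, and macrophages given IL-4 can instead fuse into multinucleated giant cells, a process in which DC-STAMP and E-cadherin (gene Cdh1) take part.

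The libraries came from macrophages grown out of femur and tibia marrow of C57BL/6N mice, either wild type or knockout for the kinase MK2 (gene Mapkapk2). All cells had M-CSF at 10 ng/ml, were replated on day 7, and were then either given no stimulus (M0) or 24 h of murine IL-4 at 10 ng/ml (M2). The 4 groups, wild-type M0, wild-type M2, knockout M0 and knockout M2, held 6 libraries each, with total counts from 7893809 to 13492507. M-CSF and IL-4 are the cytokines that the protocols name. The knockout allele is not described, and nothing in the labels ties a replicate to an animal of its own, so the spread behind each p-value is that of these libraries and may be technical. Replicates 1 to 3 and replicates 4 to 6 of every group carry separate runs of library numbers, apart from 3 libraries of replicates 1 to 3 that are numbered outside both runs, and the differences between genotypes and the IL-4 responses are also given within these replicate sets. The labels give 1 M0 and 1 M2 library of a genotype the same LS number and do not say what it marks, and no wild-type library shares an LS number with a knockout library.

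Levels are CPM, each count over its library's total after TMM correction. Mapkapk2 itself was at 119 ± 13.9 CPM (SD, n = 6) in wild-type M0 and 58.8 ± 2.9 in knockout M0, and at 119.8 ± 9.9 and 54.0 ± 4.4 in the M2 groups. Every knockout library was below every wild-type library of the same state. The summed level of 10 macrophage markers was between 15322 and 20682 CPM in wild-type M0 and between 13230 and 16150 CPM in knockout M0, which overlapped. It was between 14732 and 19004 CPM in wild-type M2 and 11980 and 14399 CPM in knockout M2, which did not overlap on this scale. The TMM factor was 0.936 for the highest knockout M2 library and 0.986 for the lowest wild-type M2 library. With that correction the M2 groups would overlap. The summed level of 8 neutrophil markers was 193 ± 25.9 CPM in wild-type M0, 139 ± 31.6 in knockout M0, 151 ± 62.7 in wild-type M2 and 117 ± 28.0 in knockout M2. That of 7 dendritic cell markers was between 1.47 and 5.70 CPM, and 4 of 8 epithelial markers had no count in any library. The summed level of 13 stromal markers was 104 to 184 CPM in the wild-type libraries and 8.82 to 26.2 CPM in the knockout libraries, and the part of the macrophage, neutrophil and stromal markers in the differences between genotypes below was not tested. In bulk samples, fewer cells of a type and less RNA per cell cannot be told apart.

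**Figure D1:**
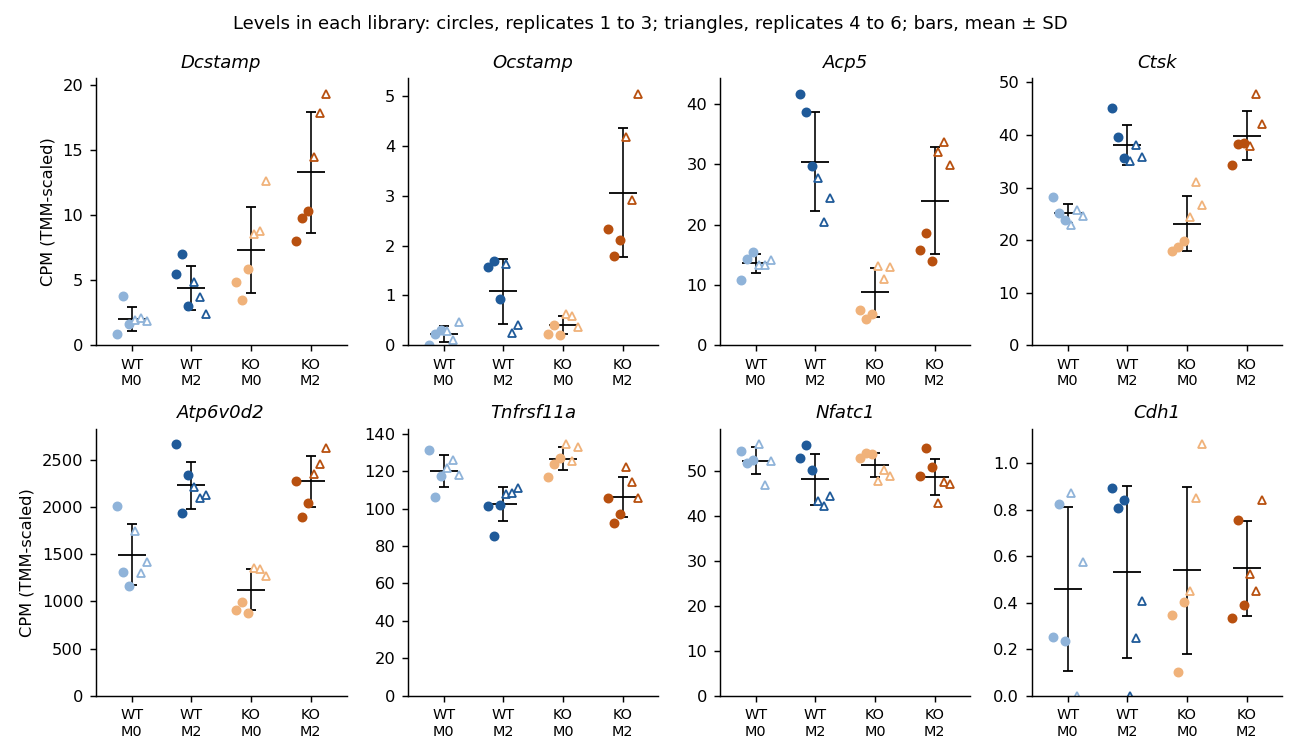
Level of 8 of the genes in each library, as TMM-scaled CPM on linear axes from 0, by genotype (WT, KO) and state (M0, M2). Circles are replicates 1 to 3, triangles are replicates 4 to 6, and black bars are the mean ± SD of 6 libraries. Dcstamp and Ocstamp were highest in knockout M2, and Acp5, Ctsk and Atp6v0d2 were higher in M2 than in M0 in both genotypes.

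Of the 7 tested genes, 6 changed with IL-4 in wild-type cells, where 16.4% of all tested genes did, and 6 changed in knockout cells, where 23.6% did. The same 5 genes rose in both genotypes (Dcstamp, Ocstamp, Acp5, Atp6v0d2 and Ctsk), Tnfrsf11a fell in both, and Nfatc1 did not pass the test in either. Between genotypes, 1 of the 7 differed without IL-4 (4.52% of all tested genes) and 2 of the 7 differed with IL-4 (4.59% of all tested genes). These were Dcstamp in both states and Ocstamp with IL-4, each higher in the knockout. Ocstamp passed the count filter only through knockout M2, where it was highest, and without it the counts were 5 of 6, 5 of 6, 1 of 6 and 1 of 6. All adjusted p-values are from edgeR's quasi-likelihood test with Benjamini-Hochberg adjustment over all tested genes, with 6 libraries in each group and an adjusted p of 0.05 as the threshold.

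**Figure D2:**
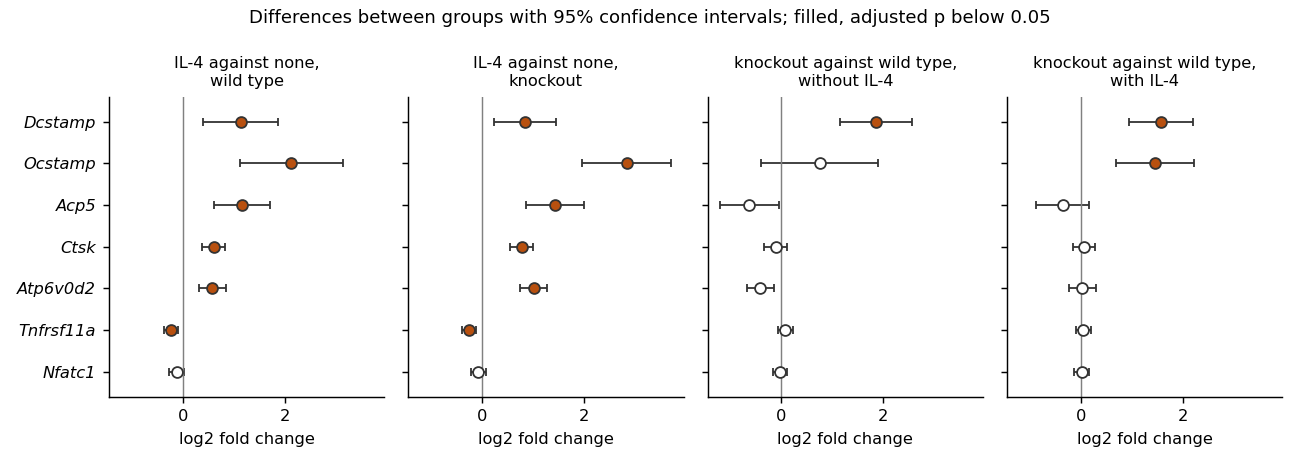
Log2 fold changes of the 7 tested genes in the 4 comparisons between groups, with 95% confidence intervals from the fit. Filled points have an adjusted p below 0.05. The IL-4 rises of 5 genes stand to the right of 0 in both genotypes, and the differences between genotypes past the threshold belong to Dcstamp and Ocstamp.

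DC-STAMP and OC-STAMP are membrane proteins that macrophage precursors need to fuse. Dcstamp (chr15:39745930-39760938, plus strand, mm10) ranged from 0.878 to 3.77 CPM in wild-type M0, with a median of 1.89, and from 2.44 to 7.04 CPM in wild-type M2, with a median of 4.31. In knockout M0 it ranged from 3.50 to 12.6 CPM with a median of 7.21, and in knockout M2 from 8.03 to 19.4 CPM with a median of 12.4. The M0 and M2 libraries of each genotype thus overlapped, as did the M0 libraries of the 2 genotypes, in which the highest wild-type value lay just above the lowest knockout value. With IL-4 no library overlapped: the lowest knockout value was above the highest wild-type value. Without IL-4 Dcstamp was 3.62-fold higher in knockout than in wild-type cells (1.86 ± 0.34 on the log2 scale, SE, with an adjusted p of 0.000865) and 2.97-fold higher with IL-4 (1.57 ± 0.30, adjusted p = 0.00155).

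IL-4 raised Dcstamp 2.20-fold in wild-type cells (log2 fold change 1.14 ± 0.35 SE, with an adjusted p of 0.0275) and 1.80-fold in knockout cells (0.85 ± 0.29, adjusted p = 0.0365). In each genotype the M2 library was above the M0 library of the same LS number in 6 of 6 pairs. The first call was lost in 4 of 14 other settings (adjusted p up to 0.219) and the second in 5 of 14 (up to 0.137). With 1 library left out, the first was lost without wild-type M0 replicate 1, 3, 4 or 6 or wild-type M2 replicate 1 or 2, and the second without knockout M0 replicate 1, 2 or 3 or knockout M2 replicate 4, 5 or 6, with adjusted p up to 0.0857 and 0.0989.

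Ocstamp (chr2:165393760-165400405, minus strand) was far scarcer, with 14 counts summed over the 6 wild-type M0 libraries, 67 over wild-type M2, 25 over knockout M0 and 167 over knockout M2. Its tests are therefore given also with no count filter. Single libraries held 0 to 4 counts in wild-type M0, 2 to 21 in wild-type M2, 2 to 7 in knockout M0 and 19 to 42 in knockout M2. All knockout M2 libraries were above all libraries of the other groups, the nearest being 1.79 CPM in knockout M2 against 1.70 CPM in wild-type M2. IL-4 raised Ocstamp 4.38-fold in wild-type cells (log2 fold change 2.13 ± 0.49 SE, with an adjusted p of 0.00319) and 7.15-fold in knockout cells (2.84 ± 0.42, adjusted p = 1.24e-05), and with no count filter the adjusted p-values were 0.00136 and 6.35e-07. In a fit of the wild-type libraries alone it did not pass the filter and has no test. In wild-type M2, replicates 5 and 6 held only 2 and 4 counts, and in replicates 4 to 6 of the fit by replicate set the wild-type rise did not pass (log2 fold change 1.43 ± 0.64, adjusted p = 0.254).

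With IL-4, Ocstamp was 2.74-fold higher in the knockout (1.46 ± 0.37 on the log2 scale, adjusted p = 0.019, and 0.0150 with no count filter). This call was lost in the fit of the 2 groups alone (adjusted p = 0.0507), without wild-type M2 replicate 6, or without knockout M2 replicate 4 or 6 (adjusted p up to 0.0674), and in replicates 1 to 3, whose values are given further on. Without IL-4 the difference was 0.75 on the log2 scale, with a 95% interval from -0.39 to 1.89, at counts too low to fix its direction.

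Tartrate-resistant acid phosphatase (gene Acp5) and cathepsin K (gene Ctsk, which cuts bone collagen) are secreted by osteoclasts, and the d2 subunit of the vacuolar proton pump (gene Atp6v0d2) takes part in acid secretion and in fusion. Acp5 lies at chr9:22126727-22135711 on the minus strand, Ctsk at chr3:95499256-95509362 on the plus strand and Atp6v0d2 at chr4:19876841-19922605 on the minus strand. RefSeq start sites (build GRCm38.p6) were at hand for 5 of the 10 genes, with 8 windows in all: 3 for Acp5, 2 for Calcr, and 1 each for Ctsk, Tnfrsf11a and Oscar. The 250 bases before the start are printed for Acp5 (the innermost of its 3 starts) and Ctsk, which rose with IL-4, and for Tnfrsf11a, which fell, so that genes that moved apart can be compared. Capitals mark matches on either strand to TTCNNNNGAA (the spacing that STAT6 is known to bind), GGAAA (NFAT core), TGANTCA (AP-1), GAGGAA (PU.1 core) or CATGTG (an E-box that MITF is known to bind).
Acp5 (chr9:22130599-22130848, minus strand): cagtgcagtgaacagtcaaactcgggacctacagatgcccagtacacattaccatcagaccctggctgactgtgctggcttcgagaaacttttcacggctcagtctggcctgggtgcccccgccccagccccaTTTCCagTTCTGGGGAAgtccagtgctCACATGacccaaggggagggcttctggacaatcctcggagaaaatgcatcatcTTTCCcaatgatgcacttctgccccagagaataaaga
Ctsk (chr3:95498960-95499209, plus strand): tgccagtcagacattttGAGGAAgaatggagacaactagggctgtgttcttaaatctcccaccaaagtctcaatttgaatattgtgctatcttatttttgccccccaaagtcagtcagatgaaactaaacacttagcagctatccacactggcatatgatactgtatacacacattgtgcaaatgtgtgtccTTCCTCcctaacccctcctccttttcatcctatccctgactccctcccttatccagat
Tnfrsf11a (chr1:105780473-105780722, plus strand): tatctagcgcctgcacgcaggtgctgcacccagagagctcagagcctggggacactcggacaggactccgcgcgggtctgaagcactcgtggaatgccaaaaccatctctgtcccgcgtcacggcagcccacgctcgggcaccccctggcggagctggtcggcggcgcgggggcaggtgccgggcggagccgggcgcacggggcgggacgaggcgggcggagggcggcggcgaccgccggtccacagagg
The Acp5 window holds 1 TTCNNNNGAA match, which begins 110 bases before the start, 2 GGAAA matches and 1 CATGTG match. The Acp5 windows not printed each hold 1 GGAAA match and no match to the other motifs. The Ctsk window holds 2 GAGGAA matches, and the Tnfrsf11a window holds none of the 5 motifs. Of the 32851 RefSeq windows of this length, 5.85% hold TTCNNNNGAA, 55.6% hold GGAAA, 6.75% hold TGANTCA, 23.3% hold GAGGAA and 12.3% hold CATGTG. None of the other 7 windows of these genes holds TTCNNNNGAA, and none of the 8 holds TGANTCA. The counts are per gene, so they do not show which of the 3 Acp5 starts was used, and a match is a description of the letters only.

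Acp5 ranged from 10.8 to 15.5 CPM in wild-type M0 (median 13.8) and from 20.4 to 41.7 CPM in wild-type M2 (median 28.7). It ranged from 4.40 to 13.2 CPM in knockout M0 (median 8.48) and from 14.0 to 33.7 CPM in knockout M2 (median 24.2). Every M2 library was above every M0 library of its genotype, and the 2 genotypes overlapped in both states. IL-4 raised Acp5 2.24-fold in wild-type cells (log2 fold change 1.16 ± 0.26 SE, with an adjusted p of 0.00302) and 2.70-fold in knockout cells (1.43 ± 0.27, adjusted p = 0.000356). Over all 6 replicates, the knockout was not past the threshold against wild type without IL-4 (log2 fold change -0.63, 95% interval -1.20 to -0.05, adjusted p = 0.272) or with it (-0.36, interval -0.88 to 0.17, adjusted p = 0.674). The knockout libraries fell into separate replicate sets, whose values are given further on.

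Ctsk ranged from 22.9 to 28.2 CPM in wild-type M0 (median 24.9), from 35.0 to 45.1 in wild-type M2 (median 36.9), from 18.0 to 31.1 in knockout M0 (median 22.1) and from 34.3 to 47.9 in knockout M2 (median 38.4). As for Acp5, no M0 library reached an M2 library of its genotype. The rise with IL-4 was 1.52-fold in wild-type cells (log2 fold change 0.61 ± 0.11 SE, with an adjusted p of 0.000238) and 1.72-fold in knockout cells (0.78 ± 0.11, adjusted p = 5.01e-06). Between genotypes the log2 difference was -0.11 without IL-4 (95% interval -0.34 to 0.12) and 0.06 with IL-4 (-0.16 to 0.28), and both intervals include 0.

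Atp6v0d2 was the most abundant of the 10 genes, with 1161 to 2011 CPM in wild-type M0 (median 1363), 1933 to 2666 in wild-type M2 (median 2168), 880.2 to 1354 in knockout M0 (median 1129) and 1894 to 2623 in knockout M2 (median 2309). The wild-type groups overlapped in 1 library of each, while all knockout M2 libraries were above all knockout M0 libraries. The rise with IL-4 was 1.49-fold in wild-type cells (log2 fold change 0.58 ± 0.13 SE, with an adjusted p of 0.00243) and 2.02-fold in knockout cells (1.02 ± 0.13, adjusted p = 1.57e-06). Without IL-4 the knockout was at -0.41 ± 0.13 on the log2 scale against wild type, which did not pass (adjusted p = 0.075). It passed with DESeq2 (adjusted p = 0.0469), with a term for the library-number set (adjusted p = 0.0186), without the 3 libraries numbered outside both runs (adjusted p = 0.0296), and without wild-type M0 replicate 3 or knockout M0 replicate 4 or 5. With IL-4 the 2 genotypes were close, with a difference of 0.03 on the log2 scale (95% interval -0.24 to 0.29).

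RANK and NFATc1 act upstream of these genes, and neither gene was called higher with IL-4. Tnfrsf11a (chr1:105780718-105847981, plus strand) encodes RANK, the receptor for RANKL. It ranged from 106 to 132 CPM in wild-type M0 (median 119.7), from 85.5 to 111 in wild-type M2 (median 105), from 117 to 135 in knockout M0 (median 126) and from 92.6 to 122 in knockout M2 (median 106). The M0 and M2 libraries overlapped in both genotypes. Tnfrsf11a was 1.17-fold lower with IL-4 in wild-type cells (log2 fold change -0.23 ± 0.07 SE, with an adjusted p of 0.0248) and 1.19-fold lower in knockout cells (-0.26 ± 0.07, adjusted p = 0.00786). The wild-type call was lost without wild-type M0 replicate 1 or 5 or wild-type M2 replicate 2 (adjusted p up to 0.065), and in 5 of 14 other settings (up to 0.350). The knockout call was lost in 2 of the 14, in replicates 1 to 3 alone (adjusted p = 0.0751) and in replicates 4 to 6 of the fit by replicate set (adjusted p = 0.140). Between genotypes the difference was 0.08 without IL-4 (95% interval -0.07 to 0.22) and 0.05 with it (-0.09 to 0.19).

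Nfatc1, the transcription factor that drives osteoclast genes, did not pass the test in any comparison over all 6 replicates. Its medians were 52.3 CPM in wild-type M0, 47.4 in wild-type M2, 51.5 in knockout M0 and 48.2 in knockout M2, and single libraries lay between 42.1 and 56.0 CPM. IL-4 changed it by -0.12 on the log2 scale in wild-type cells (95% interval -0.26 to 0.02, adjusted p = 0.271) and by -0.07 in knockout cells (-0.21 to 0.07, adjusted p = 0.534). In wild-type replicates 4 to 6 it was lower with IL-4, at -0.26 ± 0.07 (adjusted p = 0.0348 in edgeR's fit by replicate set), against 0.00 ± 0.07 in replicates 1 to 3. The knockout differed from wild type by -0.03 without IL-4 (95% interval -0.17 to 0.11) and by 0.02 with IL-4 (-0.13 to 0.16).

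Oscar (chr7:3609813-3616157, minus strand), a collagen receptor that adds a second signal to RANK, and Calcr (chr6:3685680-3764714, minus strand), the calcitonin receptor of mature osteoclasts, were at the limit of detection. Oscar had 4 counts over the 6 wild-type M0 libraries, 1 over wild-type M2, 6 over knockout M0 and 3 over knockout M2, with at most 2 in any library. Calcr had 1 count in the 24 libraries, in wild-type M2 replicate 6. The 3 groups without a Calcr count allow up to 3 counts each, for counting error only. By an exact two-sided permutation test of mean CPM over all regroupings of 6 against 6 (smallest possible p = 0.00216), the smallest p for Oscar was 0.0606, for IL-4 in wild-type cells, which became 0.727 when adjusted over the 12 tests of the 3 genes below the filter. No difference in these genes was detectable at this depth.

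Cdh1 (chr8:106603351-106670246, plus strand) encodes E-cadherin, which joins cells and is known to rise in macrophages given IL-4. It had 26 counts over the 6 wild-type M0 libraries, 33 over wild-type M2, 32 over knockout M0 and 31 over knockout M2. Single libraries held 0 to 10 counts, and the groups overlapped over almost their whole ranges, with means of 0.460 ± 0.353, 0.533 ± 0.369, 0.539 ± 0.360 and 0.549 ± 0.204 CPM (SD, n = 6). The exact permutation p-values of its 4 comparisons between groups were 0.699 or higher. By replicate set, wild-type means in M0 and M2 were 0.437 ± 0.336 and 0.848 ± 0.042 CPM in replicates 1 to 3 (SD, n = 3). In wild-type replicates 4 to 6 they were 0.483 ± 0.444 and 0.218 ± 0.205 CPM. Knockout means in M0 and M2 were 0.284 ± 0.162 and 0.493 ± 0.227 CPM in replicates 1 to 3. In knockout replicates 4 to 6 they were 0.795 ± 0.319 and 0.604 ± 0.209 CPM. These set values of Cdh1 were not tested. Of the 8 genes in a list of other cadherins and of catenins, 6 were tested. With IL-4, 1 of the 6 rose and 0 fell in each genotype. Over all tested genes, 8.49% rose and 7.95% fell in wild-type cells, and 12.2% rose and 11.4% fell in knockout cells. With DESeq2 or a term for the library-number set, 1 gene of the list fell in wild-type cells. The gene that rose was beta-catenin (Ctnnb1), by 0.55 ± 0.07 on the log2 scale in wild-type cells and 0.53 ± 0.07 in knockout cells. N-cadherin (Cdh2) and cadherin 11 (Cdh11) were lower in the knockout without IL-4, by log2 fold changes of -3.23 and -3.40. Their wild-type M0 means were 3.97 and 10.4 CPM, and stromal cells are known to express both. The summed stromal markers were at 146 ± 25.9 CPM in wild-type M0 and 13.1 ± 6.5 CPM in knockout M0, and their part in these differences was not tested.

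Levels of different genes can be compared on the authors' length-corrected scale (GETMM). In wild-type M0 the order was Atp6v0d2 at 1029 ± 213 (SD, n = 6), Tnfrsf11a at 45.0 ± 3.2, Ctsk at 29.1 ± 2.0, Nfatc1 at 20.1 ± 1.1, Acp5 at 16.8 ± 2.1, Dcstamp at 2.61 ± 1.21, Cdh1 at 0.181 ± 0.138, Ocstamp at 0.113 ± 0.078 and Oscar at 0.0721 ± 0.0567. Nfatc1 and Acp5 overlapped across libraries, as did Cdh1, Ocstamp and Oscar, while the steps between the other neighbours were larger than the spread. With IL-4 the order changed in the middle. In wild-type M2, Ctsk (44.5 ± 4.5), Tnfrsf11a (38.7 ± 3.4) and Acp5 (37.9 ± 10.4) overlapped, all above Nfatc1 (18.6 ± 2.2). In knockout M2, Dcstamp reached 17.1 ± 5.8 and overlapped with Nfatc1 at 18.8 ± 1.6.

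**Figure D3:**
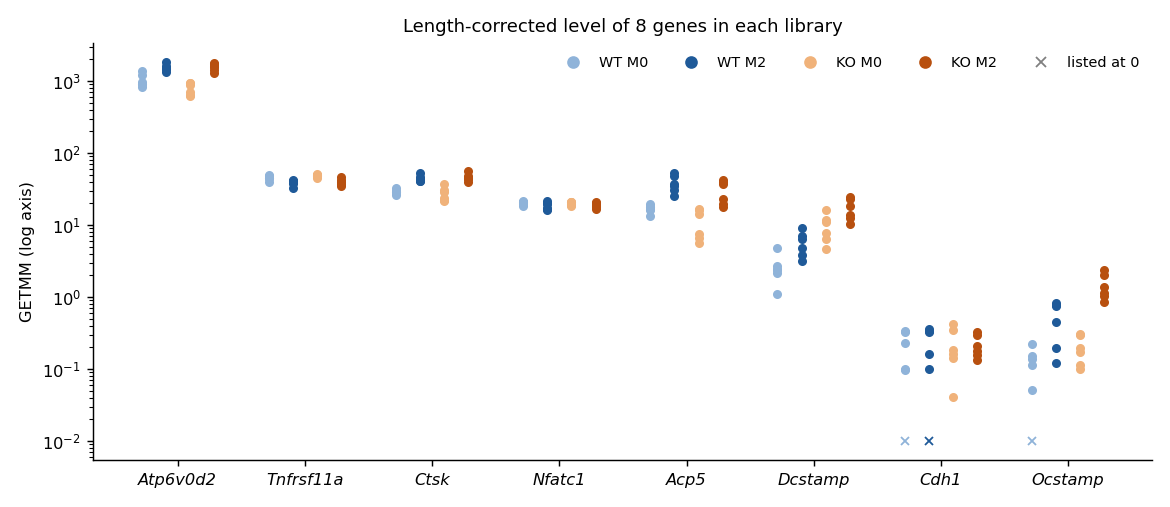
Length-corrected level (GETMM, log axis) of 8 genes in each library, ordered by their mean in wild-type M0, with the 4 groups side by side for each gene. Crosses at the foot of the plot are libraries listed at 0. Atp6v0d2 lies above every other gene in every group, and Cdh1 and Ocstamp lie at the bottom in wild-type M0.

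In knockout M0, the libraries separated by replicate set for Acp5, Dcstamp, Ctsk and Atp6v0d2, with replicates 4 to 6 above replicates 1 to 3, and for Nfatc1, with replicates 4 to 6 below. The sets did not overlap for these 5 of the 7 tested genes, as for 33.1% of all tested genes. The count was 5 of 7 in knockout M2 (23.4% of all tested genes), 3 of 7 in wild-type M2 (17.1%) and 0 of 7 in wild-type M0 (10.3%). In knockout M0, Acp5 was at 5.92, 4.40 and 5.25 CPM in replicates 1, 2 and 3 and at 13.2, 11.05 and 13.0 CPM in replicates 4, 5 and 6. In wild-type M0, its means were 13.55 ± 2.4 CPM (SD, n = 3) in replicates 1 to 3 and 13.6 ± 0.5 in replicates 4 to 6. A fit with 8 means, 1 for each group and replicate set, was added after the data were seen. In it, knockout M0 replicates 4 to 6 were above replicates 1 to 3 by 1.26 ± 0.17 (log2 ± SE, with an adjusted p of 0.000363) for Acp5 and by 0.54 ± 0.11 (adjusted p = 0.00834) for Ctsk. These were 2 of the 7 tested genes, where 3.15% of all tested genes differed between the sets. In knockout M2, 1 of the 7 differed, Acp5 at 0.99 ± 0.15 (adjusted p = 0.00248), where 1.05% of all genes did. None of the 7 passed between the wild-type sets, where 0.203% of all genes did in M0 and 0.547% in M2, although Acp5 in wild-type M2 moved the other way, at -0.60 ± 0.14 (adjusted p = 0.065).

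The genotype difference was also fitted within each set. Without IL-4, Acp5 was lower in the knockout in replicates 1 to 3 (log2 fold change -1.40 ± 0.17 SE, with an adjusted p of 1.09e-05) and at -0.14 ± 0.16 in replicates 4 to 6 (adjusted p = 0.786), and the test of the difference between the sets passed (1.26 ± 0.23, adjusted p = 0.0154). With IL-4, Acp5 was lower in the knockout in replicates 1 to 3 (-1.19 ± 0.15, adjusted p = 1.24e-05) and at 0.40 ± 0.15 in replicates 4 to 6 (adjusted p = 0.183), again with a difference past the threshold (1.58 ± 0.21, adjusted p = 0.000891). Ctsk without IL-4 was lower in the knockout in replicates 1 to 3 (-0.45 ± 0.11, adjusted p = 0.0119) and at 0.17 ± 0.11 in replicates 4 to 6 (adjusted p = 0.59), with a difference of 0.62 ± 0.15 (adjusted p = 0.0446). The difference between sets passed for 2 of the 7 genes without IL-4 (1.81% of all tested genes) and for 1 of the 7 with IL-4 (0.781%).

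Atp6v0d2 followed Acp5 and Ctsk in direction, with a knockout difference of -0.69 ± 0.15 in replicates 1 to 3 without IL-4 (adjusted p = 0.00478) and -0.17 ± 0.15 in replicates 4 to 6, but its test between sets did not pass (adjusted p = 0.251). In replicates 1 to 3 without IL-4, 3 of the 7 genes were thus lower in the knockout (8.60% of all tested genes changed), and in replicates 4 to 6, 1 of the 7 differed, Dcstamp (2.93%). With IL-4, 1 of the 7 differed in replicates 1 to 3, Acp5 (4.88%), and 2 in replicates 4 to 6, Dcstamp and Ocstamp (3.93%).

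For Dcstamp the knockout difference was above 0 in both sets, and it passed the test in replicates 4 to 6 only, in each state. Its log2 fold change without IL-4 was 1.19 ± 0.37 in replicates 1 to 3 (adjusted p = 0.0508) and 2.33 ± 0.35 in replicates 4 to 6 (adjusted p = 0.000196), and with IL-4 it was 0.86 ± 0.31 (adjusted p = 0.144) and 2.22 ± 0.32 (adjusted p = 0.000137). The tests of the differences between sets did not pass (adjusted p = 0.327 and 0.177). Ocstamp with IL-4 was at 0.57 ± 0.46 in replicates 1 to 3 (adjusted p = 0.691) and 2.35 ± 0.49 in replicates 4 to 6 (adjusted p = 0.00454), with an adjusted p of 0.255 for the difference. In the knockout, the summed stromal markers lay at 8.82 to 26.2 CPM in M0 and 8.82 to 21.7 CPM in M2, with the highest library in replicates 1 to 3 in each state. What the sets stand for beyond their library numbers is not given in the labels.

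**Figure D4:**
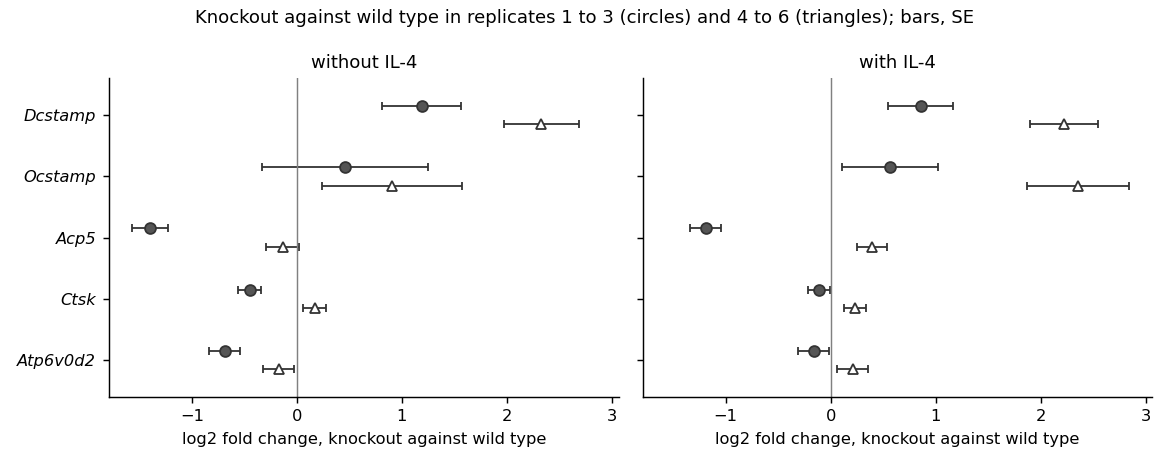
Log2 fold change of knockout against wild type for 5 genes, in replicates 1 to 3 (circles) and replicates 4 to 6 (triangles), without and with IL-4, with SE bars from the fit with 8 means. For Acp5 the circles stand at -1.40 and -1.19 and the triangles at -0.14 and 0.40, and for Dcstamp both symbols are above 0 in both states.

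In the fit by replicate set, Acp5, Atp6v0d2 and Ctsk rose with IL-4 in both sets and both genotypes. In replicates 1 to 3, 6 of the 7 genes changed in wild-type cells (13.3% of all tested genes) and 6 in knockout cells (20.2%), and in replicates 4 to 6, 4 changed in wild-type cells (5.87%) and 4 in knockout cells (13.3%). The rises of Dcstamp did not pass in replicates 4 to 6 (adjusted p = 0.219 in wild-type and 0.0840 in knockout cells), nor did the falls of Tnfrsf11a (adjusted p = 0.350 and 0.140). Which set passed depended on the fit. With each set fitted by itself in edgeR, the rises of Dcstamp passed in replicates 4 to 6 (adjusted p = 0.0350 and 0.00487). They did not pass in replicates 1 to 3 (adjusted p = 0.0947 and 0.137). The fall of Tnfrsf11a in knockout replicates 4 to 6 passed in that fit (adjusted p = 0.0151). Acp5 rose 2.69-fold in wild-type replicates 1 to 3 and 1.78-fold in replicates 4 to 6. No difference between the sets in an IL-4 response passed for the 7 genes (adjusted p = 0.728 or higher).

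Whether the IL-4 response itself differed between genotypes was tested as an interaction. None of the 7 genes passed, nor did any of the 12797 tested genes (0%) by edgeR's quasi-likelihood test, where 390 genes had an unadjusted p under 0.05. DESeq2 called 1 gene and limma on log2(GETMM + 1) called 3, none of them among the 7. The response of Atp6v0d2 was larger in the knockout by 0.44 ± 0.18 on the log2 scale (unadjusted p = 0.0243, adjusted p = 1.00). The 95% intervals of the differences were wide for Ocstamp (-0.78 to 2.19), Dcstamp (-1.22 to 0.65) and Acp5 (-0.51 to 1.05), so responses that differ within these bounds could not be told from equal ones.

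Other genes of the pathway were described from lists, which were also chosen with earlier results of these data known. Their counts beside the shares over all genes are likewise a description. In a list of 23 genes of the resorption machinery (proton pump subunits, the attachment integrin, vesicle transport and proteases), 21 were tested. With IL-4, 8 rose and 0 fell in wild-type cells, where 8.49% of all tested genes rose and 7.95% fell, and the median over the list was 0.16 on the log2 scale against -0.02 over all tested genes. In knockout cells 11 rose and 0 fell, where 12.2% rose and 11.4% fell, and the median was 0.21 against 0.00. The largest rises were those of integrin beta 3 (Itgb3), which anchors osteoclasts to bone, from 73.7 ± 19.2 to 197 ± 17.4 CPM in wild-type cells (log2 fold change 1.41 ± 0.15 SE) and from 84.5 ± 7.6 to 289 ± 69.7 CPM in knockout cells (1.77 ± 0.15). Next came the pump subunit Atp6v1b2, at 0.61 ± 0.11 and 0.69 ± 0.11. Between genotypes, 0 were higher and 2 lower in the knockout without IL-4 (1.10% and 3.42% of all tested genes), the membrane protease Mmp14 (-1.14 ± 0.24), which stromal cells also make, and Plekhm1 (-0.23 ± 0.06), an adaptor of lysosome transport. These counts depended on the replicate set. In replicates 1 to 3 fitted by themselves, 1 was higher and 1 lower, where 433 of all genes were called. In replicates 4 to 6 by themselves, 3 were higher and 0 lower, where 956 were called. With IL-4, 2 were higher in the knockout (1.51% of all tested genes), the kinase Src (0.57 ± 0.14) and Itgb3 (0.56 ± 0.15), and 1 was lower (3.09%), Mmp14 (-1.25 ± 0.25). Carbonic anhydrase 2 (Car2), which supplies the protons, was below the count filter and not tested, with 13 counts over wild-type M0, 41 over wild-type M2, 20 over knockout M0 and 44 over knockout M2. Siglec15, a receptor of osteoclast maturation, had 3 to 10 counts a group.

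**Figure D5:**
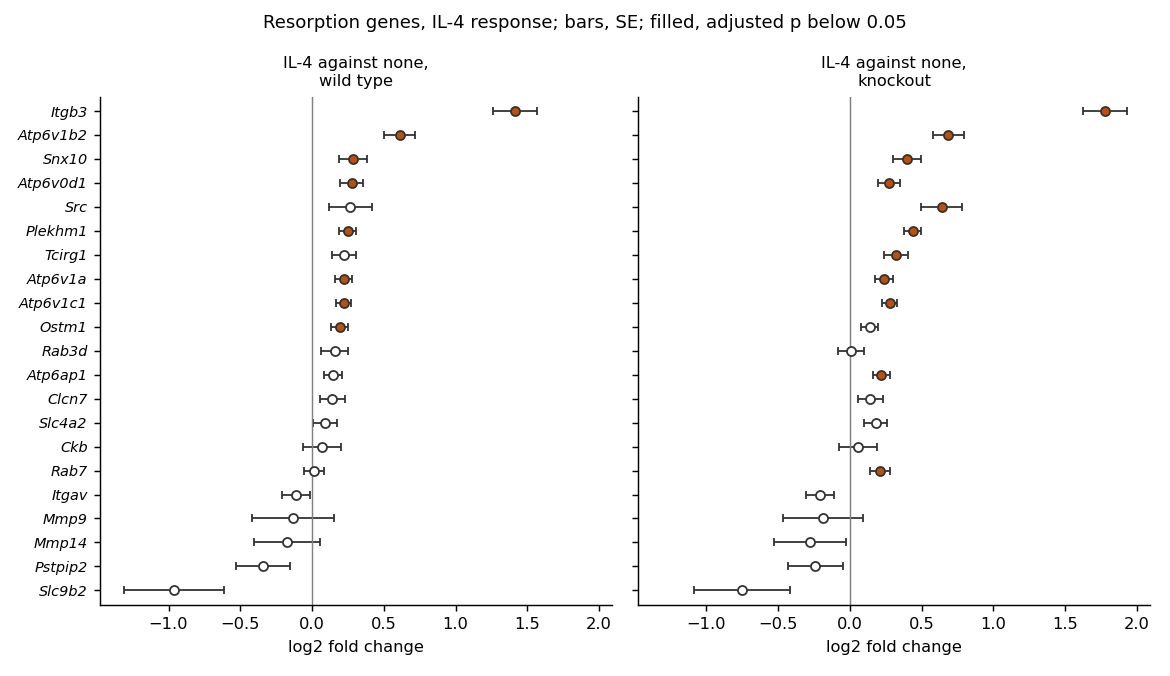
Log2 fold change with IL-4 of the 21 tested genes of the resorption list in wild-type and knockout cells, with SE bars, ordered by the wild-type value. Filled points have an adjusted p below 0.05. In wild-type cells 8 points are filled and in knockout cells 11, all to the right of 0, led by Itgb3.

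Of 22 fusion cofactors, 20 were tested. With IL-4, 4 rose and 3 fell in wild-type cells, and 6 rose and 3 fell in knockout cells (6 and 6 with DESeq2), with medians of -0.01 and 0.04 on the log2 scale. Changes in either direction passed for 16.4% of all tested genes in wild-type and 23.6% in knockout cells. The tetraspanin Cd9 (0.61 ± 0.07 and 0.88 ± 0.07) and the hyaluronan receptor Cd44 (0.52 ± 0.06 and 0.69 ± 0.06) rose in both genotypes. The chemokine Ccl2 rose in the knockout (1.09 ± 0.37), from 18.1 ± 10.0 to 38.2 ± 18.4 CPM (mean ± SD). In wild-type cells its means were similar, at 17.3 ± 6.7 CPM in M0 and 36.0 ± 12.8 CPM in M2. For 0 of the 20 did the IL-4 response pass the test of a difference between genotypes. The podosome scaffold Sh3pxd2a (-0.53 ± 0.08 and -1.02 ± 0.08) and the engulfment adaptor Elmo1 (-0.41 ± 0.08 and -0.48 ± 0.08) fell in both. In the knockout without IL-4, 2 were higher and 0 lower (1.10% and 3.42% of all tested genes), the tetraspanin Cd81 (1.09 ± 0.27) and the integrin Itgam (0.26 ± 0.06). With IL-4, Cd9 (0.34 ± 0.07) and Itgam (0.19 ± 0.06) were higher (1.51% of all tested genes). Adam12 was lower (-1.41 ± 0.38, 3.09% of all tested genes), at 25 counts summed over knockout M2 against 71 over wild-type M2. Without the 3 libraries numbered outside both runs, 1 gene of the list was higher with IL-4 and 0 lower, so the Adam12 call was lost.

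In a list of 28 genes of signalling from RANK to NFATc1, 25 were tested, and 3 rose and 3 fell with IL-4 in wild-type cells and 4 rose and 2 fell in knockout cells, with medians of -0.08 and -0.02. These are 6 of 25 in each genotype, beside 16.4% and 23.6% of all tested genes. A term for the library-number set brought the falls in knockout cells to 7. The AP-1 member Fosl2 rose (0.64 ± 0.09 and 1.03 ± 0.09), as did the related factors Tfec (0.56 ± 0.08 and 0.71 ± 0.08) and Mitf (0.53 ± 0.10 and 0.73 ± 0.10), while Fos, an AP-1 partner of NFATc1, fell (-0.86 ± 0.09 and -0.92 ± 0.09). The signalling adaptor Fcer1g fell in wild-type cells (-0.28 ± 0.09), and the phospholipase Plcg2 fell in both (-0.20 ± 0.06 and -0.22 ± 0.06). In the knockout, 0 of the 25 differed without IL-4 (4.52% of all tested genes). With IL-4, 1 of the 25 differed (4.59%), Fosl2, which was higher (0.44 ± 0.09). In replicates 4 to 6 fitted by themselves, 4 were higher without IL-4 and 6 with it, where 956 and 1056 of all genes were called. In replicates 1 to 3 by themselves, 0 of the 25 differed in either state. RANKL itself (Tnfsf11) had 4, 1, 2 and 0 counts over wild-type M0, wild-type M2, knockout M0 and knockout M2. Its decoy receptor osteoprotegerin (Tnfrsf11b), a product of stromal cells, had 23, 33, 0 and 1.

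Of the 3 tested relatives of Nfatc1, Nfatc2 fell with IL-4 in both genotypes (-0.63 ± 0.11 and -0.99 ± 0.11) and was lower in the knockout with IL-4 (-0.45 ± 0.11). Among the 8 tested genes that restrain NFATc1 or its targets were Id2, which rose with IL-4 (0.42 ± 0.07 and 0.52 ± 0.07), and Rcan1, an inhibitor of calcineurin that NFATc1 itself is known to induce, which fell (-0.31 ± 0.06 and -0.34 ± 0.06). Of the 8, 2 rose and 1 fell with IL-4 in each genotype. Over all tested genes, 8.49% rose and 7.95% fell in wild-type cells, and 12.2% rose and 11.4% fell in knockout cells. In the knockout without IL-4, 2 were higher, Id2 (0.26 ± 0.07) and Rcan1 (0.25 ± 0.06), and 1 was lower (1.10% and 3.42% of all tested genes). With IL-4, 1 was higher in the knockout, Id2 (0.36 ± 0.07), and 0 were lower (1.51% and 3.09%). The median log2 fold change with IL-4 in wild-type and knockout cells was -0.25 and -0.23 for the relatives of Nfatc1, 0.04 and -0.03 for the restraining genes, and -0.16 and 0.01 for the cadherins and catenins. Between genotypes, the medians of all 6 lists lay between -0.10 and 0.10, against -0.01 without and 0.01 with IL-4 over all tested genes.

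The genes whose pattern was most like that of each tested gene were ranked by Pearson's r of log2(CPM + 1) over the 24 libraries. These values describe libraries that share groups, and IL-4 and genotype both enter them. Dcstamp was most like Mfge8 (r = 0.935), H2-Eb1 (0.908) and H2-Aa (0.887), and Ocstamp was most like Irf4 (0.902), Fosl2 (0.898) and Tex9 (0.897). Acp5 was most like Acox3 (0.963), Snn (0.961) and Idh1 (0.956). Atp6v0d2 was most like Clec7a (0.991), Aplp2 (0.981) and Cers6 (0.971), and Ctsk was most like Itgax (0.957), Mmp19 (0.944) and Egr2 (0.942). For Nfatc1 the values were lower, with Plekhg2 (0.837), Emd (0.818) and Arpc3 (0.806), and Tnfrsf11a was most like Kcnj2 (0.893), Mctp1 (0.873) and Lilrb4a (0.873). The ranking depended on the correlation used. By Spearman's rho, Dcstamp kept the same genes, while Ocstamp, Ctsk and Nfatc1 kept none of those named here and the others kept some. Among the genes themselves, Atp6v0d2 and Ctsk went together most closely (r = 0.907), followed by Acp5 with Ctsk (0.876) and with Atp6v0d2 (0.854), whereas Dcstamp was less like these (r between 0.274 and 0.480) than like Ocstamp (0.761).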

How the data were processed

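The 24 libraries of mouse marrow macrophages were made with a Kapa Hyperprep kit and sequenced as single 40 bp reads, per the labels' protocols. The authors deposited expected counts in whole numbers and, as a second table, GETMM values, a signal per gene that they corrected for gene length and library. The submitters' processing notes name edgeR, RSEM 1.3.0, Bowtie2 2.3.4.1, CASAVA 2.8.0 and the build mm10 without their order or settings. The sources used here give no strand setting. Groups were taken from genotype and state in the labels, and 0 columns lacked a sample.

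Low genes were removed with filterByExpr (minimum count 10), and 12797 of 54429 genes, with 99.8% of the counts, were tested by robust quasi-likelihood (edgeR 4.0.16, R 4.3.3) after TMM scaling, in 1 fit over 4 group means that was tested on simulated data beforehand. SE were taken from the log2 fold change and the F statistic. Genes below the filter were compared by exact permutation of mean CPM. Chi-square per degree of freedom between 2 libraries of 1 group was 2.63 or more, so no library was counted as a repeat of another. PCR reads are not independent molecules, so limits from counts cover counting error only.

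The 10 genes and the lists were chosen with earlier results of these data known. The genes named were the 10, Mapkapk2, the 2 largest rises and 2 largest falls past the threshold in each list and comparison, and the 3 genes most like each tested gene, leaving out predicted genes. A gene that this rule names is not reported here. Car2, Siglec15, Tnfsf11 and Tnfrsf11b were chosen after their values were seen, as was the second genotype's value of a gene named for 1 genotype. Gene positions are from GENCODE M21 on mm10, and start sites from RefSeq. Alternatives were DESeq2 1.42.0, RLE size factors, other count filters (none, or CPM of at least 1), a fit of 2 groups, a block (LS number for IL-4, replicate number between genotypes), a term for the library-number set, each replicate set by itself, each library left out, limma 3.58.1 on log2(GETMM + 1) or log2(GETMM + 0.1), and a fit lacking the 3 libraries whose numbers lie outside both runs (replicate 3 of wild-type M0 and replicate 2 of both M2 groups).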

Additional observations from a re-analysis of the deposited data

Results flagged for a closer look

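In 35 groups of 6 libraries with counts, the highest or lowest library was checked for its distance from the others, and 2 stood apart, where chance gives about 1 in 20 groups. Tnfrsf11a in wild-type M2 replicate 2 was at 85.5 CPM, with the next library at 101.6 CPM. Oscar in knockout M2 replicate 4 was at 0.261 CPM, which is 2 counts, with the next at 0.0942 CPM.

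For 3 comparisons the genotype difference in replicates 4 to 6 differed from that in replicates 1 to 3 by a test of the difference itself in edgeR. The log2 difference between the sets was 1.26 for Acp5 without IL-4, 1.58 for Acp5 with IL-4 and 0.62 for Ctsk without IL-4, each from 3 libraries a group and set.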

How the results depend on the processing

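Of 1307 values of the 7 tested genes under other settings, 1226 kept their direction and their side of the threshold, 43 lost a call, 15 gained one and 23 changed sign. The sign changes with each replicate set taken by itself, and with the fit of 8 means for that set, were in replicates 1 to 3 for Nfatc1 with IL-4 in wild-type cells (0.0232 and 0.00325), Nfatc1 between genotypes without IL-4 (0.0440 and 0.0186), and, between genotypes with IL-4, Atp6v0d2 (-0.16 and -0.16), Ctsk (-0.11 and -0.11) and Nfatc1 (-0.0363 and -0.0376). In replicates 4 to 6 they were Ctsk between genotypes without IL-4 (0.18 and 0.17) and Acp5 between genotypes with IL-4 (0.39 with an adjusted p of 0.0228, and 0.40 with 0.183). For the difference of IL-4 responses, Nfatc1 was at -0.0803 in replicates 1 to 3, and Dcstamp was at 0.0466 without the 3 libraries numbered apart. With 1 library left out, the values ranged from -0.0160 to 0.0871 for Atp6v0d2 and from -0.0196 to 0.0662 for Nfatc1 between genotypes with IL-4, and from -0.0759 to 0.00900 for Tnfrsf11a in the difference of IL-4 responses. The cause was not tested.

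The number of tested genes of the 10 that were called without IL-4 between genotypes was 2 with DESeq2, the replicate block, the library-number term, and without the 3 libraries, 3 in replicates 1 to 3 by the fit of 8 means, and 1 to 2 with a library left out. With IL-4 it was 1 with the fit of 2 groups and in replicates 1 to 3 by either fit. It was 3 in replicates 4 to 6 alone, where Acp5 was also called, higher in the knockout. With a library left out it was 1 to 2. Over all genes, fewer libraries gave 857 calls with IL-4 in wild-type cells and 1472 in knockout cells in replicates 1 to 3 alone, and 751 and 1705 in replicates 4 to 6 by the fit of 8 means. Between genotypes without IL-4, the calls were 1044 with the library-number term, 956 in replicates 4 to 6 alone, and 1101 and 375 in replicates 1 to 3 and 4 to 6 by the fit of 8 means. With IL-4 they were 919 with the library-number term, 305 in replicates 1 to 3 alone and 1056 in replicates 4 to 6 alone. For the difference of IL-4 responses they were 1 with DESeq2, 2 with the replicate block, 21 in replicates 4 to 6 alone and 3 with limma on log2(GETMM + 1).

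For IL-4 the block was the LS number that an M0 and an M2 library of a genotype share, and between genotypes it was the replicate number, which no label ties across genotypes. The labels do not say what the numbers mark, and not every pair correlated: the correlations of deviations ranged from -0.06 to 0.43 for IL-4 and from -0.39 to 0.56 between genotypes. With the replicate block, calls over all genes went from 2103 to 2622 and from 3024 to 3446 for IL-4, and from 579 to 666 and from 588 to 672 between genotypes. A library correlated best with the one of its own number in 4 of 6 pairs for IL-4 in either genotype, and in 1 and 3 of 6 pairs between genotypes without and with IL-4. Of the calls on the tested genes of the 10, the block changed that of Atp6v0d2 between genotypes without IL-4 (adjusted p = 0.0412 in edgeR) and no other. For IL-4, the block gave Dcstamp an adjusted p of 0.000687 in wild-type and 0.000351 in knockout cells. Depth limits Ocstamp, Oscar, Calcr and Cdh1, with at most 42, 2, 1 and 10 counts in a library.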
